A study of Mus musculus with 12 samples.

Results

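Eph receptors are cell surface tyrosine kinases, and ephrins are the membrane-bound ligands they meet on neighbouring cells. RNA of 10 of these genes was examined in sorted stem cells of the mouse intestine in which none, 1 or both copies of Apc were floxed. The genes were taken by symbol: the B receptors Ephb2, Ephb3 and Ephb4, the A receptors Epha1, Epha2 and Epha4, the B ligands Efnb1 and Efnb2, and the A ligands Efna1 and Efna4. All 10 were present in the tables, among 14082 symbols used, and all 10 passed the filter on low values (4 or more of the 12 libraries with 1 FPKM or more), as did 12962 genes in all. Epha4 was the member nearest to that limit, at 1.54 to 3.06 FPKM.

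The cells, Lgr5-GFP+ and sorted by FACS, came from the intestinal epithelium of C57BL/6 mice at day 15 after Cre was switched on. Each mouse carried Lgr5-CreERT2-ires-eGFP, which places a tamoxifen-activated Cre recombinase and green fluorescent protein under the control of Lgr5, a stem cell gene of the crypt base. Tamoxifen was given to every group, the controls included, as 1 injection followed by diet for 5 days. Apc_WT mice were Apc+/+, Apc_HET mice ApcFlox/+ and Apc_KO mice ApcFlox/Flox, with 4 libraries from 4 mice a genotype according to the design text. Sex, age and batch are not given in the sources used here. Values are FPKM, fragment numbers scaled by the length of the transcript and the size of the library, so levels can be compared between genes.

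In the crypt, Wnt signalling is strongest at the base and fades towards the villus. EphB2 and EphB3 receptors are known as Wnt targets that are highest in the lower crypt, and ephrin-B ligands are known to be highest towards the crypt mouth and villus. Repulsion between the receptor-bearing and ligand-bearing cells keeps proliferating and differentiated cells in their places, and places Paneth cells at the base. Apc helps to hold beta-catenin low by sending it for destruction, so its loss leaves the Wnt pathway switched on. The comparison asks how the genes of this positioning system read when 1 or both copies of Apc are targeted.

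Sequence just before an annotated transcription start is shown for 4 of the genes, from RefSeq on GRCm38.p6. The receptor that rose (Ephb3) is set beside the ligand that fell (Efnb1). Also shown are 2 windows that held the motif searched, that of Epha2 and the more upstream of those of Efna1. Capitals mark CAAAG, or CTTTG where it lies on the other strand, the core letters of the site bound by TCF and LEF factors, through which beta-catenin acts on genes. The windows lie at chr16:21204545-21204619 (plus strand) for Ephb3, chrX:99135811-99136060 (plus strand) for Efnb1, chr3:89280952-89281201 (minus strand) for Efna1 and chr4:141300971-141301194 (plus strand) for Epha2. Each reads 5′ to 3′ towards the gene. Bases from the gene's first annotated base on, or from the start of its deposited locus where that is earlier, are not shown. This shortened Ephb3 to 75 bases and, through its deposited locus, Epha2 to 224.
Ephb3: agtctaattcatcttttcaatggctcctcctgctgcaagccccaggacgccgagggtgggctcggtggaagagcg
Efnb1: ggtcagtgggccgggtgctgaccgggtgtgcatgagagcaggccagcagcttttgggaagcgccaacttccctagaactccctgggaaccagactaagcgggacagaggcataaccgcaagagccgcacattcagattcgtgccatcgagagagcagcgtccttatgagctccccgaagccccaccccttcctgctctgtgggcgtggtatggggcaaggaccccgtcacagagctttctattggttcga
Efna1: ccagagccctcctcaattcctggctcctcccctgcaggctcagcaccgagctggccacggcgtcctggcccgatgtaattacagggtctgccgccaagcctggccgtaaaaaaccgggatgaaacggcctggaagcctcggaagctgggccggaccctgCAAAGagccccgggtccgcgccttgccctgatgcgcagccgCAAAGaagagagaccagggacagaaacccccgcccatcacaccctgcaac
Epha2: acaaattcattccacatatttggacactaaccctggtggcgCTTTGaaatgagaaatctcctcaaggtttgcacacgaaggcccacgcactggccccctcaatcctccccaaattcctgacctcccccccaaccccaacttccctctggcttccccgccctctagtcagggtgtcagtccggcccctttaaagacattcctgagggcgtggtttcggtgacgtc

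The search itself took the 250 bases before each start listed by RefSeq, 11 windows for the 10 members, Efna1 having 2. The core was in 3 of the 11: those of Epha2 and Efna4 and 1 of Efna1. In Epha2 it began 209 bases before the start and was part of CTTTGAA, which is TTCAAAG on the other strand. For Efna1 the core lay before the start at 89280951, whose window is shown above. The deposited Efna1 locus ends at 89279697, nearer to the second start, 89279645, whose window held no CAAAG. The windows of Ephb2, Ephb3 and Efnb1 held no CAAAG. That of Ephb2, 136836013 to 136836262 on the minus strand, lies wholly inside the gene as annotated, which ends at 136836326. The window of Ephb3 runs to 21204794, past the first annotated base of the gene at 21204620, so most of it lies inside the gene. Of 32851 such windows over all genes, 48.6% held CAAAG on either strand and 7.48% held ATCAAAG or TTCAAAG on either strand, and each of these longer motifs contains the core. The dinucleotide CG occurred 20 times in the window of Ephb2, 16 times in Ephb3, 13 times in Efnb1, 9 times in Epha2 and 27 times in Efnb2, beside a median of 6 over all windows. These windows say nothing of sites farther away.

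Several facts of the libraries bear on the values. Epcam, an epithelial adhesion gene, was at 649 to 1110 FPKM in the 12 libraries, and Lgr5 itself was present throughout, at 20.2 to 65.4 FPKM. Apc was at 6.91 to 10.5 FPKM across Apc_WT, 9.81 to 12.5 across Apc_HET and 9.94 to 17.3 across Apc_KO, so its RNA was not lower in Apc_KO. It was called higher there than in Apc_WT (limma on log2(FPKM + 1), difference 0.58, SE 0.17, adjusted p = 0.0142), though the libraries overlapped. The tables give 1 value for the whole gene, so the deletion of an exon was not measured. Total FPKM ran from 391710 to 518428, the highest in Apc_KO replicate 4, and FPKM tables hold no fragment counts, so the absolute depth is unknown. Apc_KO replicate 4 stood apart by transcript length. Its median deviation from the other Apc_KO libraries was 0.51 on the log2 scale over the 2777 genes with the shortest transcripts and -0.38 over the 2775 with the longest. In the other 11 libraries these medians ran from -0.39 to 0.15 and from -0.09 to 0.20, Apc_KO replicate 1 being at -0.39 and 0.20. The difference between Apc_KO and Apc_WT is therefore given for each member with and without replicate 4.

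Of the 10 genes, 2 were called different between Apc_KO and Apc_WT (limma on log2(FPKM + 1), adjusted p under 0.05). Ephb3 rose and Efnb1 fell. Over all genes tested, 45.5% were called, so 2 of 10 is no more than the share among all genes. By direction, 27.9% of all genes were called higher and 17.7% lower. That balance moved with scaling: 3613 genes were higher and 2291 lower as deposited, 2864 and 2829 with size factors, and 2764 and 3043 with quantile normalization. The median log2 difference over all genes was 0.12 as deposited, 0.0074 with size factors and -0.02 with quantile normalization. Over the members it was -0.00063. The groups' libraries did not overlap for the same 2 genes, beside 40.4% of all genes.

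Marker genes of cell types were summed in each library. Summed over the 11 crypt base stem cell genes analysed of 12 listed, FPKM was 5460 to 6288 across Apc_WT, 5152 to 8288 across Apc_HET and 677 to 1430 across Apc_KO. Olfm4 made up 91.1% to 92.6% of that sum in the libraries of Apc_WT and Apc_HET and 11.2% to 52.8% in Apc_KO. Without Olfm4 the sum over the other 10 genes went the other way. It was 432 to 516 FPKM across Apc_WT, 459 to 635 across Apc_HET and 596 to 841 across Apc_KO. These genes did not all rise. Mean FPKM in Apc_WT and Apc_KO was 19.9 and 18.1 for Ascl2, 119 and 104 for Smoc2 and 66.3 and 60.4 for Rgmb. The rest had higher means in Apc_KO, such as Tnfrsf19 with 8.39 and 70.6. The 8 epithelial genes summed to 2410 to 2931 across Apc_WT, 2424 to 3034 across Apc_HET and 2369 to 3918 across Apc_KO, but moved apart singly. Vil1, Cdh1 and Cldn7 were lower in every Apc_KO library than in any Apc_WT library, Vil1 at 69.9 to 102 against 176 to 268 FPKM. Krt18 was higher, at 563 to 1241 against 250 to 352. Goblet cell markers (6 genes) summed to 1315 to 1940, 1331 to 1522 and 197 to 438 in the same order of genotypes, and enteroendocrine markers (5 of 6) to 250 to 1077, 439 to 628 and 13.4 to 102. Stromal markers (4 of 8) summed to 8.91 to 26.4, 20.8 to 88.3 and 125 to 154, with Pdgfra under 0.1 FPKM in every Apc_WT library and Col1a1 in every Apc_HET library. Vim, which is not particular to stroma, gave 115 to 134 FPKM of the Apc_KO sum. Pdgfra was at 0 to 0.0604 FPKM across Apc_WT, 0.181 to 1.17 across Apc_HET and 7.81 to 34.9 across Apc_KO. Pdgfrb went the other way, at 2.10 to 5.51 FPKM across Apc_WT, 4.58 to 9.03 across Apc_HET and 0.304 to 2.67 across Apc_KO. Col1a1 overlapped, at 0 to 2.17 FPKM across Apc_WT and 0 to 5.65 across Apc_KO. Leukocyte markers (6 of 10) summed to 5.93 to 7.97, 5.80 to 8.98 and 1.60 to 5.24. Of these, Itgam was at 2.70 to 3.73 FPKM across Apc_WT and 0.197 to 0.605 across Apc_KO, while the others overlapped between these genotypes. The part of these cells in the values of the Eph and ephrin genes was not tested.

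Ephb3, a B receptor of the crypt base, was the member that rose. It lies on chromosome 16 from 21204620 to 21223309, and the deposited locus covers 99.9% of it. It read 21.6, 18.8, 16.1 and 19.8 FPKM in Apc_WT replicates 1 to 4, 22.8, 25.7, 28.8 and 18.2 in Apc_HET, and 57.1, 48.2, 61.1 and 55.9 in Apc_KO. Every Apc_KO library was above every library of the other genotypes, while Apc_HET overlapped Apc_WT. The means were 19.1 ± 2.29 FPKM (SD, n = 4) for Apc_WT, 23.9 ± 4.54 for Apc_HET and 55.6 ± 5.39 for Apc_KO, a ratio of 2.91 between Apc_KO and Apc_WT. The difference was 1.50 on the log2(FPKM + 1) scale (SE 0.14, adjusted p = 4.08e-06) and ran from 1.42 to 1.56 when any 1 library was left out. In such sorted samples, more RNA per cell and more cells that carry it cannot be told apart. The 6 Paneth cell marker genes analysed, of 7 listed, summed to 5421 to 9278 FPKM in Apc_WT and 1460 to 6415 in Apc_KO, with overlap between the genotypes. The list did not move as one: Lyz1 averaged 2924 FPKM in Apc_WT and 1468 in Apc_KO and Defa24 2761 and 564, while Mmp7 averaged 133 and 642 and Pla2g2a ran from 8.33 to 15.3 in Apc_WT and from 179 to 601 in Apc_KO. The part of Paneth cells, which carry EphB3, in the value of Ephb3 was not tested.

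**Figure D1:**
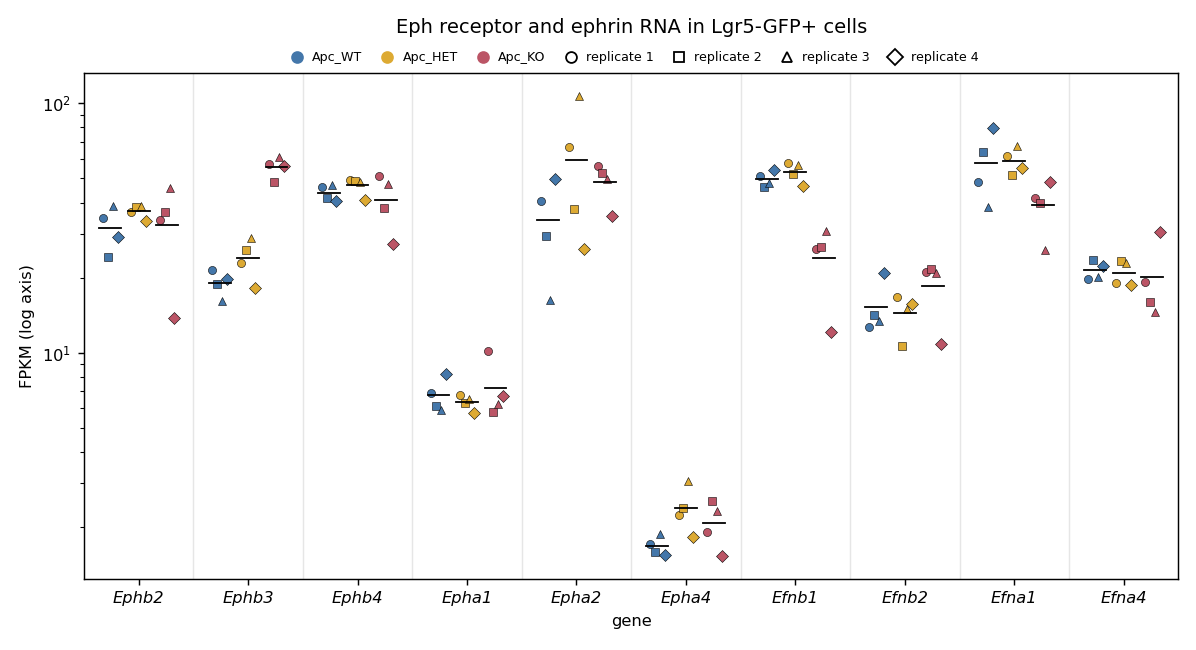
FPKM of the 10 genes in each of the 12 libraries, on a log axis. Colours mark the genotype, shapes the replicate number and bars the mean of 4 libraries. The 4 Apc_KO libraries of Ephb3 lie at 48.2 to 61.1, above all others, those of Efnb1 at 12.1 to 30.7, below all others, and the diamond of Apc_KO replicate 4 is the lowest Apc_KO value in 6 of the 10 genes.

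Ephb2, the receptor often used to grade cells along the crypt, did not pass. It lies on chromosome 4 from 136647536 to 136836326. Its values were 34.7, 24.2, 38.8 and 29.1 FPKM in Apc_WT, 36.7, 38.4, 38.9 and 33.9 in Apc_HET, and 34.1, 36.7, 45.8 and 13.8 in Apc_KO. The Apc_KO libraries lay on both sides of Apc_WT, with replicate 3 the highest of the 12 and replicate 4 the lowest. The log2 difference between Apc_KO and Apc_WT was -0.06 (SE 0.29, adjusted p = 0.885), with a 95% interval from -0.69 to 0.57. Without Apc_KO replicate 4 it was 0.30 (adjusted p = 0.136), with an interval from -0.04 to 0.63. Neither interval reaches the 1.50 measured for Ephb3.

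Ephb4, a B receptor also known from veins, lies on chromosome 5 from 137350109 to 137374522. It read 46.3, 41.6, 47.1 and 40.5 FPKM in Apc_WT, 49.4, 49.0, 48.5 and 40.8 in Apc_HET, and 50.9, 37.9, 47.4 and 27.2 in Apc_KO. The genotypes overlapped, and Apc_KO replicate 4 was again the lowest library. The log2 difference between Apc_KO and Apc_WT was -0.14 (SE 0.17, adjusted p = 0.538), with an interval from -0.50 to 0.23, and 0.04 (adjusted p = 0.797) without that library. Endothelial genes were higher in Apc_KO: the 4 analysed of the 10 listed (Cdh5, Tek, Esam and Flt1) summed to 5.08 to 5.62 FPKM across Apc_WT, 5.44 to 8.76 across Apc_HET and 32.0 to 55.5 across Apc_KO. Cdh5 was at 0 to 0.0158 FPKM in Apc_WT and 14.2 to 29.3 in Apc_KO. Their part in the values of Ephb4 was not tested.

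Within a library, the make-up of the B receptors shifted towards Ephb3. Of the FPKM summed over Ephb2, Ephb3 and Ephb4, Ephb3 gave 21.0%, 22.3%, 15.8% and 22.2% in Apc_WT replicates 1 to 4. In Apc_HET it gave 20.9%, 22.7%, 24.8% and 19.6%. In Apc_KO its share was 40.2%, 39.3%, 39.6% and 57.7%. Replicates 1 to 3 of Apc_KO lay within 1 percentage point of each other, and replicate 4, with its low Ephb2 and Ephb4, was higher. The ratio of Ephb3 to Ephb2 was 0.415 to 0.778 across Apc_WT, 0.536 to 0.741 across Apc_HET and 1.32 to 4.07 across Apc_KO, so the order of these 2 receptors was turned in every Apc_KO library.

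Among the ligands, Efnb1 fell. Ephrin-B1 is a transmembrane ligand of the B receptors, and its gene lies on chromosome X from 99136061 to 99149022. It read 51.2, 46.3, 47.9 and 54.2 FPKM in Apc_WT, 57.4, 52.2, 56.3 and 46.5 in Apc_HET, and 26.1, 26.6, 30.7 and 12.1 in Apc_KO. All 4 Apc_KO libraries were below the other 8. The means were 49.9 ± 3.51 FPKM (SD, n = 4) for Apc_WT, 53.1 ± 4.96 for Apc_HET and 23.9 ± 8.11 for Apc_KO, so the Apc_WT mean was 2.09 times that of Apc_KO. The log2 difference was -1.10 (SE 0.22, adjusted p = 0.0015), and -0.82 (SE 0.10, adjusted p = 5.41e-05) without Apc_KO replicate 4. Enterocyte markers moved the same way: the 10 listed genes summed to 1540 to 4142 FPKM across Apc_WT, 537 to 1869 across Apc_HET and 219 to 370 across Apc_KO. In Apc_HET replicates 1 to 4 the sums were 1596, 762, 537 and 1869 FPKM, beside Efnb1 at 57.4, 52.2, 56.3 and 46.5. Every Apc_KO sum was below these. The part of these cells in the value of Efnb1 was not tested.

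Efnb2, the other B ligand among the members, did not pass with all libraries. It lies on chromosome 8 from 8617235 to 8661242. Its values were 12.6, 14.2, 13.4 and 20.9 FPKM in Apc_WT, 16.7, 10.7, 15.0 and 15.6 in Apc_HET, and 21.0, 21.6, 20.8 and 10.9 in Apc_KO. Apc_KO replicates 1 to 3 lay close together at the upper end and replicate 4 near the lower end. The log2 difference between Apc_KO and Apc_WT was 0.24 (SE 0.23, adjusted p = 0.416), with an interval from -0.25 to 0.74. Without Apc_KO replicate 4 it was 0.47 and called higher (SE 0.18, adjusted p = 0.0482). Efnb1 gave 72.1% to 80.2% of the summed ephrin-B FPKM across Apc_WT, 74.8% to 83.0% across Apc_HET and 52.8% to 59.6% across Apc_KO, a shift that replicate 4 shared. The endothelial marker sum given above was higher in Apc_KO, and ephrin-B2 is also known from arteries; its part in Efnb2 was not tested.

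The B receptors together were higher relative to their ligands in Apc_KO. Summed B receptor FPKM divided by summed ephrin-B FPKM was 1.61, 1.40, 1.66 and 1.19 in Apc_WT replicates 1 to 4, 1.47, 1.80, 1.63 and 1.49 in Apc_HET, and 3.01, 2.55, 2.99 and 4.21 in Apc_KO. No Apc_KO library overlapped the other genotypes. The ratio of Ephb3 to Efnb1 alone was 0.336 to 0.421 across Apc_WT, 0.390 to 0.512 across Apc_HET and 1.81 to 4.61 across Apc_KO. These sums and ratios describe the members and carry no test.

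**Figure D2:**
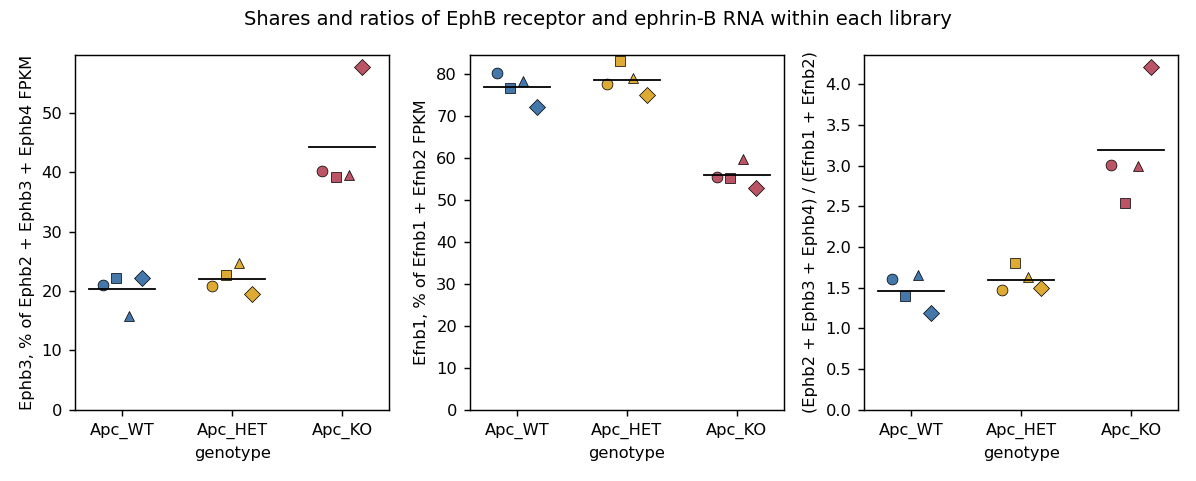
Share of Ephb3 in B receptor FPKM, share of Efnb1 in ephrin-B FPKM and the ratio of B receptor to ephrin-B FPKM, by genotype. Circles, squares, triangles and diamonds are replicates 1 to 4 and bars are means. Apc_KO is apart from the other genotypes in each panel, with shares of Ephb3 at 39.3% to 57.7% against 15.8% to 24.8% in the other 8 libraries.

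The A ligands Efna1 and Efna4, which are held in the membrane by a lipid anchor, did not pass between Apc_KO and Apc_WT. Efna1 read 48.3, 63.5, 38.5 and 79.2 FPKM in Apc_WT, 61.5, 51.4, 67.2 and 55.0 in Apc_HET, and 41.7, 39.7, 25.9 and 48.5 in Apc_KO. Apc_KO was below Apc_HET in every library and overlapped Apc_WT. The log2 difference was -0.53 from Apc_WT (SE 0.23, adjusted p = 0.0746) and -0.61 from Apc_HET (SE 0.23, adjusted p = 0.0475), the second of which was called. The difference from Apc_WT was called with size factors (-0.65, adjusted p = 0.0339), with quantile normalization (-0.59, adjusted p = 0.0398) and without Apc_KO replicate 4 (-0.65, adjusted p = 0.042). That from Apc_HET lost its call when any of 9 of the 12 libraries was left out, with values of -0.67 to -0.43.

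Efna4 read 19.7, 23.6, 20.2 and 22.3 FPKM in Apc_WT, 19.0, 23.3, 22.9 and 18.7 in Apc_HET, and 19.2, 16.0, 14.5 and 30.5 in Apc_KO. Replicates 1 to 3 of Apc_KO were below every Apc_WT library and replicate 4 was above all of them. The log2 difference from Apc_WT was -0.15 (SE 0.19, adjusted p = 0.56), and -0.36 and called lower without replicate 4 (SE 0.12, adjusted p = 0.0275). Without that library 5 of the 10 members were called between Apc_KO and Apc_WT, Ephb3 and Efnb2 higher and Efnb1, Efna1 and Efna4 lower, beside 48.4% of all genes, 29.2% higher and 19.1% lower. With arrayWeights 4 were called, beside 49.7% of all genes.

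The A receptors showed no call. Epha2, a receptor of ephrin-A1 common in epithelia, had the largest standard error of the 10 members. It read 40.4, 29.3, 16.3 and 49.7 FPKM in Apc_WT, 66.6, 37.8, 107 and 26.2 in Apc_HET, and 56.0, 52.5, 49.7 and 35.5 in Apc_KO. The genotypes overlapped broadly. Its log2 difference between Apc_KO and Apc_WT was 0.59 (SE 0.41, adjusted p = 0.269), with an interval from -0.31 to 1.49, and 0.73 (adjusted p = 0.211) without Apc_KO replicate 4. Epha1 read 6.92, 6.12, 5.91 and 8.20 FPKM in Apc_WT, 6.80, 6.29, 6.52 and 5.73 in Apc_HET, and 10.2, 5.78, 6.25 and 6.68 in Apc_KO, with a log2 difference between Apc_KO and Apc_WT of 0.06 (interval from -0.28 to 0.40, adjusted p = 0.788) that was -0.05 with size factors and 0.08 without Apc_KO replicate 4. Its end overlaps the annotated gene Zyx, which passed the filter. The deposited locus of Epha1, 42349754 to 42373298 on chromosome 6, also spans most of Zyx, which lies from 42349511 to 42360213. Use of strand in the counting is not given in the sources used here.

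Epha4, a receptor that binds ligands of both classes, was the lowest member, at 1.71, 1.58, 1.87 and 1.55 FPKM in Apc_WT, 2.23, 2.38, 3.06 and 1.83 in Apc_HET, and 1.91, 2.55, 2.32 and 1.54 in Apc_KO. Its log2 difference between Apc_KO and Apc_WT was 0.19 (interval from -0.13 to 0.51, adjusted p = 0.318), -0.16 with quantile normalization and 0.28 (adjusted p = 0.12) without Apc_KO replicate 4. Apc_KO replicates 1 to 3 were above every Apc_WT library for Epha4 and replicate 4 was below them.

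**Figure D3:**
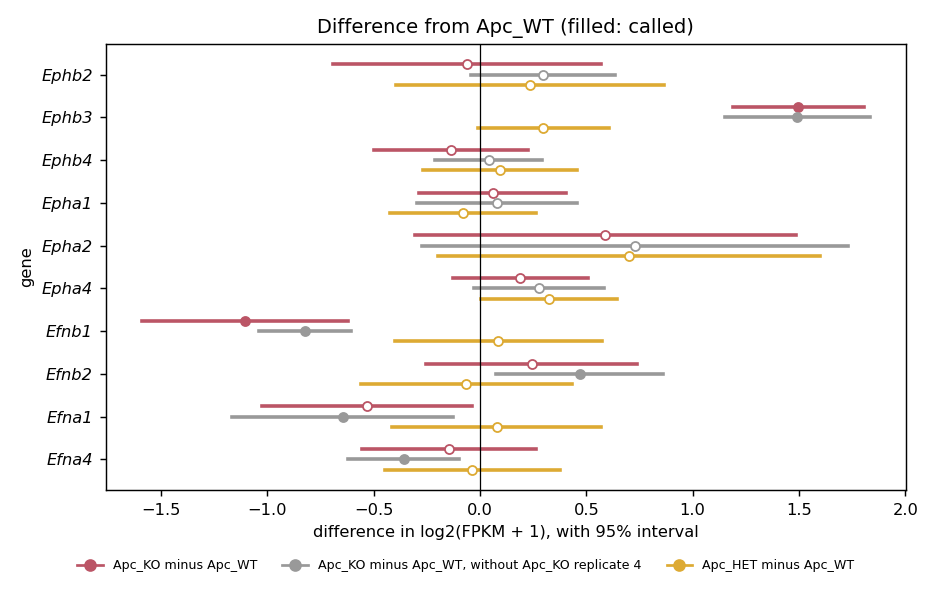
Difference from Apc_WT in log2(FPKM + 1) for the 10 genes, with 95% intervals, for Apc_KO with all libraries, for Apc_KO without replicate 4 and for Apc_HET. Filled points were called at an adjusted p under 0.05. Ephb3 (1.50) and Efnb1 (-1.10) are called with and without replicate 4, and no point of Apc_HET is filled.

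The deviations of Apc_KO replicate 4 are set here beside transcript length, member by member and with no test. The members with the shortest annotated transcripts, Efna4 (1599 bases) and Efna1 (1632 bases), were 0.85 and 0.46 higher in replicate 4 than in the mean of replicates 1 to 3 on the log2 scale. Ephb2, with the longest transcript (10902 bases), was 1.42 lower there (a deviation of -1.42). Efnb1 (3258 bases), Efnb2 (4793 bases) and Ephb4 (4340 bases) deviated by -1.13, -0.90 and -0.71. Ephb3 (4748 bases) deviated by 0.02. Epha1 (3273 bases) deviated by -0.09 and Epha4, with the next longest transcript after Ephb2 (6328 bases), by -0.36. Epha2 (3913 bases) deviated by -0.56. The part of length, or of RNA quality, in these values was not tested.

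**Figure D4:**
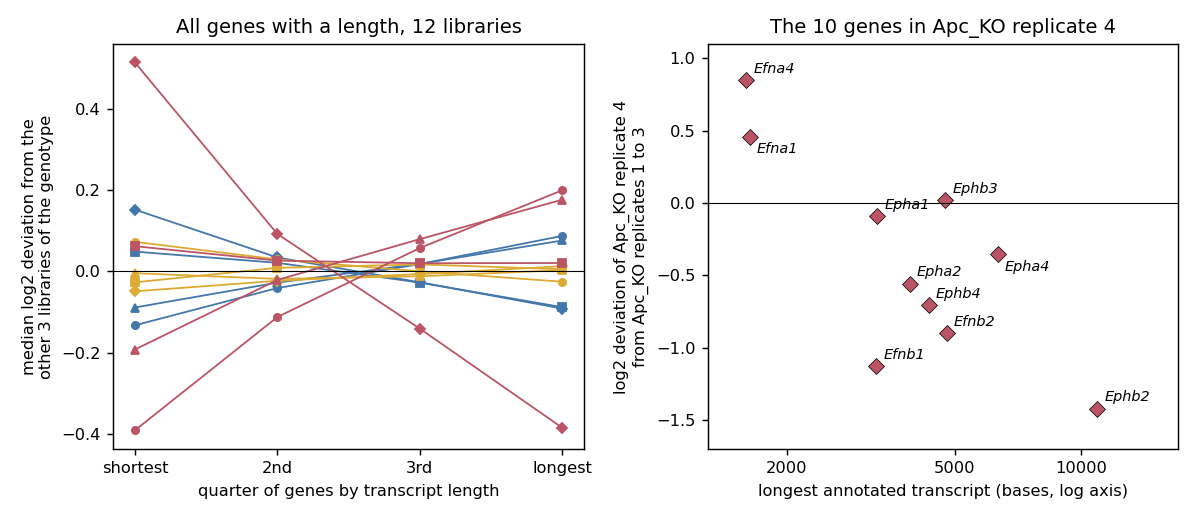
Left, median log2 deviation of each library from the other 3 of its genotype, by 4 classes of genes in transcript length (11104 genes with a length), colours marking the genotype (blue Apc_WT, yellow Apc_HET, red Apc_KO) and circles, squares, triangles and diamonds replicates 1 to 4. Right, the deviation of the 10 genes in Apc_KO replicate 4 against their longest annotated transcript in bases on a log axis, from 0.85 in Efna4 to -1.42 in Ephb2.

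Targeting of 1 Apc copy was examined by setting Apc_HET against Apc_WT. Of the 10 members 0 were called by limma, as was the case for 0% of all genes, and 1 had an unadjusted p under 0.05, Epha4, with a log2 difference of 0.32 (SE 0.15, adjusted p = 0.987). Over all genes, 561 of 12962 had an unadjusted p under 0.05. Ephb3 differed by 0.30 (SE 0.14, adjusted p = 0.987), with an interval from -0.01 to 0.60, and Efnb1 by 0.09 (interval from -0.40 to 0.57). Epha2 had the largest difference, 0.70, with an interval from -0.19 to 1.60. For every member the libraries of these 2 genotypes overlapped, while 6.08% of all genes had libraries that did not. With arrayWeights, which weights each library by its fit, 0 members were called beside 0.00771% of all genes.

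The comparison of Apc_KO with Apc_HET called 3 of 10 members, against 41.8% of all genes. Ephb3 was higher by 1.20 (SE 0.14, adjusted p = 2.75e-05) and Efnb1 lower, at -1.19 (SE 0.22, adjusted p = 0.000992), with Efna1 as given above. The libraries did not overlap for these 3 members, beside 39.5% of all genes. Ephb2 differed by -0.30 (interval from -0.92 to 0.33), and by 0.06 without Apc_KO replicate 4. Both comparisons of Apc_KO use the same 4 Apc_KO libraries, and that with Apc_WT shares its controls with the comparison of Apc_HET. Without Apc_KO replicate 4, 5 of 10 members were called against Apc_HET, beside 43.4% of all genes (5 with arrayWeights, beside 47.7%), with Efnb2 higher by 0.53 (adjusted p = 0.0314) and Efna4 lower, at -0.32 (adjusted p = 0.0469).

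The order of the levels differed between genotypes. In Apc_WT the mean FPKM ran from Efna1 (57.4) through Efnb1 (49.9), Ephb4 (43.9), Epha2 (33.9), Ephb2 (31.7), Efna4 (21.4), Ephb3 (19.1), Efnb2 (15.3) and Epha1 (6.79) to Epha4 (1.68). Neighbours in that order overlapped between libraries, except Ephb2 and Efna4, Efnb2 and Epha1, and Epha1 and Epha4. In Apc_HET, Epha2 (59.4) stood first with a range across the next 4 genes, and Ephb3 (23.9) was sixth. In Apc_KO Ephb3 (55.6) stood first and Efnb1 (23.9) sixth. There the neighbours overlapped, except Efnb2 and Epha1, and Epha1 and Epha4, so the first place of Ephb3 over Epha2 (48.4) is within their spread.

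The genes whose pattern over the 12 libraries was most like that of a member were found by the root mean square difference of their centred log2 values, over 11248 genes and as a description. Nearest to Ephb3 were Hunk, a kinase gene (0.14), Smad7, an inhibitor of TGF-beta signalling (0.14), and N4bp3 (0.14), where Ephb3 itself varied by 0.67. Smad7 averaged 11.0 ± 1.47 FPKM (SD, n = 4) for Apc_WT, 13.9 ± 2.72 for Apc_HET and 31.3 ± 4.87 for Apc_KO. Axin2, a feedback inhibitor of the Wnt pathway, was the fourth nearest (0.15), at 49.6 ± 6.29, 65.9 ± 7.54 and 128 ± 21.4 FPKM, with a log2 difference of 1.34 between Apc_KO and Apc_WT. Nearest to Efnb1 were Crim1 (0.12), Rasgrf2 (0.15) and Shroom3, a regulator of apical cell shape (0.16), the last at 45.2 ± 5.59, 49.1 ± 6.03 and 23.3 ± 6.47 FPKM. Nearest to Ephb2 were Trim56 (0.11), Ap1g1, an adaptor of vesicle transport (0.13), and Ago2, the slicer protein of RNA interference (0.14), with Trim56 at 10.2 ± 2.37, 12.5 ± 0.655 and 9.56 ± 3.90 FPKM. Ephb2 was not called in any comparison, and was at 13.8 FPKM in Apc_KO replicate 4 against 34.1 to 45.8 in replicates 1 to 3. The SD of Trim56, Ap1g1 and Ago2 was also largest in Apc_KO, at 3.90, 6.83 and 4.88 FPKM. The part of replicate 4 in this likeness was not tested.

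The rest of the family was measured in part. Of 12 other Eph and ephrin genes listed, 6 were in the tables and 4 passed the filter: Epha7, Ephb6, Efna3 and Efnb3. Each of these 4 was called between Apc_KO and Apc_WT, the receptors Epha7 and Ephb6 higher and the ligands Efna3 and Efnb3 lower. Each was also called without Apc_KO replicate 4, at 2.53, 1.83, -1.67 and -0.54. Ephb6 passed the filter only through its Apc_KO libraries, so its call is no support and its values are given as a description. For the same reason the number called is not set against the share of all genes. Epha7 read 1.26, 0.742, 1.35 and 0.647 FPKM in Apc_WT, 0.841, 1.94, 4.34 and 1.13 in Apc_HET, and 11.0, 8.41, 12.2 and 14.7 in Apc_KO, a log2 difference of 2.65 (SE 0.29, adjusted p = 1.59e-05). Ephb6, a receptor without kinase activity, was at 0.0204 to 0.0865 FPKM across Apc_WT, 0.0257 to 0.0804 across Apc_HET and 1.55 to 5.95 across Apc_KO (log2 difference 2.06). Efna2 and Efna5, the genes that did not pass the filter, were at 0.221 to 0.954 and 0 to 8.91 FPKM in the 12 libraries, the highest Efna5 value being in Apc_HET replicate 3. The locus of Efna5 spans 2.39% of the gene.

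Efna3 fell. It read 5.47, 5.39, 5.40 and 5.91 FPKM in Apc_WT, 6.02, 5.83, 5.35 and 4.68 in Apc_HET, and 0.954, 0.965, 1.26 and 0.757 in Apc_KO. The Apc_KO libraries were far below the other 8, with a log2 difference from Apc_WT of -1.73 (SE 0.12, adjusted p = 2.81e-07). It lies between Efna1 and Efna4 on chromosome 3, the loci running from 89271692 to 89279697 (Efna1), 89313916 to 89322950 (Efna3) and 89333350 to 89338091 (Efna4), so the middle of these 3 neighbours had the largest difference. Efnb3 read 4.56, 4.90, 5.19 and 2.40 FPKM in Apc_WT, 4.91, 4.35, 4.40 and 5.62 in Apc_HET, and 2.17, 2.57, 2.87 and 1.80 in Apc_KO. Apc_WT replicate 4 lay within the Apc_KO range. The log2 difference was -0.62 (SE 0.19, adjusted p = 0.0172), and without Apc_WT replicate 2 (-0.56) or 3 (-0.53) the call ended. Its loci cover 28.3%, 12.5% and 6.98% of the gene.

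Of 38 genes listed as acting with Eph receptors or ephrins, 34 were tested between Apc_KO and Apc_WT. Of these, 18 did not pass, 13 were called higher and 3 lower, and 19 in all were called without Apc_KO replicate 4. The share called is near the 45.5% of all genes and is no result about the list. It also holds 3 genes that the filter kept only because of their Apc_KO libraries, Chn1, Grb10 and Arhgef15, the last named here after its values were seen. Fyn, a Src family kinase, read 1.53, 1.90, 1.99 and 1.70 FPKM in Apc_WT, 2.58, 2.73, 3.61 and 1.55 in Apc_HET, and 14.2, 14.2, 15.9 and 14.7 in Apc_KO (log2 difference 2.51, SE 0.16, adjusted p = 1.79e-07). The Apc_KO libraries of Fyn lay in a narrow band far above the rest. Chn1, a Rac inhibitor that acts below EphA4, was at 0.158 to 0.346 FPKM across Apc_WT, 0.122 to 0.330 across Apc_HET and 4.05 to 4.96 across Apc_KO (log2 difference 2.11). Grb10, an adaptor, was at 0.0994 to 0.713 FPKM across Apc_WT, 0.0516 to 1.04 across Apc_HET and 2.31 to 6.09 across Apc_KO (log2 difference 1.95). Grip1, a PDZ protein that binds B ligands, rose by 1.83 on the log2 scale. Grip1 read 2.19, 2.58, 4.95 and 0 FPKM in Apc_WT and 18.1, 18.1, 3.78 and 5.26 in Apc_KO, overlapping, and its call ended with arrayWeights (1.73) and without Apc_WT replicate 4 (1.33) or Apc_KO replicate 1 (1.53) or 2 (1.53).

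The lower partners were Vav3, Pik3r1 and Inppl1. Vav3 averaged 2.84 FPKM in Apc_WT, 4.04 in Apc_HET and 0.487 in Apc_KO (log2 difference between Apc_KO and Apc_WT -1.39, SE 0.16, adjusted p = 2.36e-05). Inppl1, the lipid phosphatase SHIP2 that binds EphA2, read 35.1, 33.5, 37.1 and 37.3 FPKM in Apc_WT, 42.3, 41.8, 43.1 and 37.5 in Apc_HET, and 20.7, 21.3, 23.5 and 19.3 in Apc_KO (log2 difference -0.73, SE 0.09, adjusted p = 2.87e-05). Pik3r1, a regulatory subunit of PI3 kinase, had a log2 difference of -0.77 (SE 0.18, adjusted p = 0.00435). For all 3 genes the Apc_KO libraries were below every library of the other genotypes. Between Apc_HET and Apc_WT 0 of the 34 partners were called, with a smallest adjusted p of 0.987 and 3 at an unadjusted p under 0.05.

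**Figure D5:**
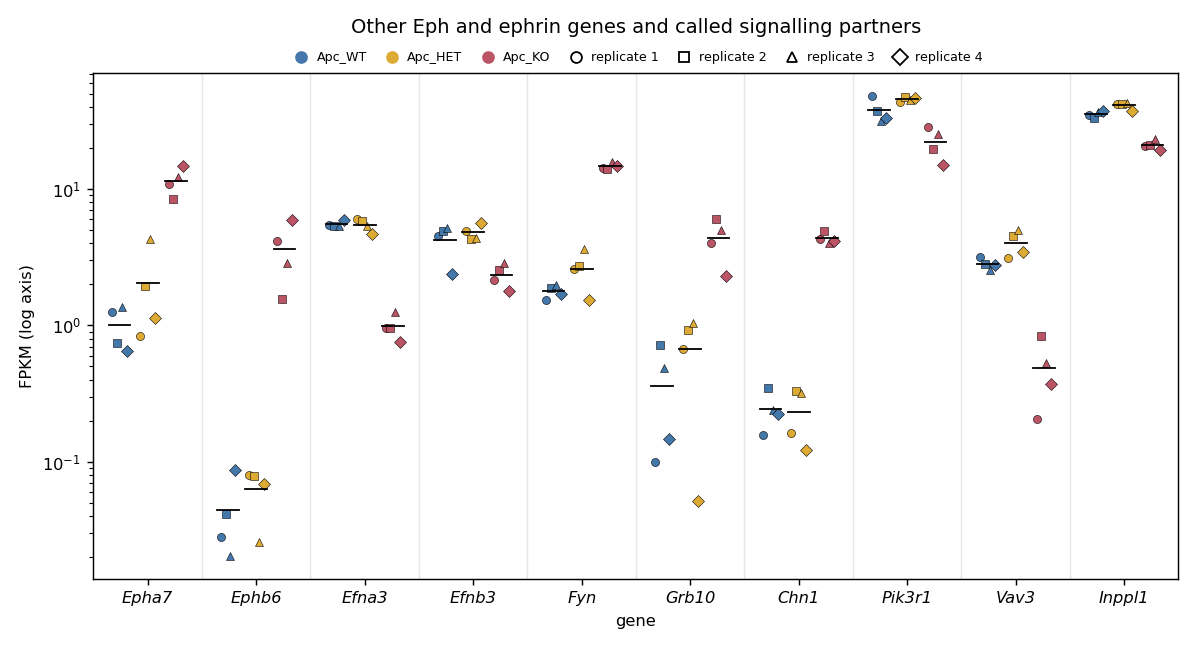
FPKM on a log axis of the other Eph and ephrin genes that passed the filter and of signalling partners called between Apc_KO and Apc_WT, by library; colours mark the genotype, shapes the replicate and bars the mean. Grip1 is not drawn because 1 library is at 0. Efna3 falls from 5.39 to 5.91 FPKM in Apc_WT to 0.757 to 1.26 in Apc_KO, and Fyn rises from 1.53 to 1.99 to 14.2 to 15.9.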

How the data were processed

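Sequencing libraries of random-primed cDNA were made from sorted Lgr5-GFP+ cells, 4 for each of 3 genotypes. The authors deposited 1 FPKM table per library, per the file headers. Bowtie, TopHat, Cufflinks and Cuffdiff are named in the submitters' processing notes, with the build mm10 (GRCm38); versions, annotation and use of strand are not given in the sources used here. Loci of a symbol were summed. Left out of 14499 symbols were 295 with different loci in the genotypes' tables and 122 with a failed estimate. Genes that reached 1 FPKM in 4 or more libraries entered 1 limma fit (limma 3.58.1, R 4.3.3) of log2(FPKM + 1) in the 12 libraries, with an empirical Bayes trend. The two-sided p-values were adjusted over all genes of each comparison by Benjamini-Hochberg, and a call needed an adjusted p under 0.05. Fold changes near 0 FPKM are understated on this scale. The fit was tested on simulated data.

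The members, the lists (12 other family genes, 38 signalling partners and 9 sets of cell type markers) and the tests were chosen with earlier results of these data known. Named genes were every member, every other family gene kept by the filter, up to 4 called partners in each direction for Apc_KO against Apc_WT, Apc, Lgr5 and Axin2, and the 3 genes most like Ephb2, Ephb3 and the member of next largest difference, Efnb1. The share of each locus and the transcript lengths, from GENCODE M21, were computed on GRCm38; 85.7% of kept genes had a length. The look at transcript length was added after the values were seen. Alternatives were size factors, quantile normalization, a pseudocount of 0.1, no filter, a filter of 5 FPKM, the largest locus only, fits of only 2 genotypes, the replicate number as a block, arrayWeights and leaving out each library.

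The replicate numbers are not stated to pair samples, and p-values measure the spread between these libraries.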

Additional observations from a re-analysis of the deposited data

Results flagged for a closer look

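In groups of 4 libraries, a library was noted where its gap to the nearest of the others, as a share of the group's range, passed Dixon's 95% critical value, which chance alone gives in about 1 of 20 groups. Of 96 groups looked at, 7 had such a library, and several of these quantities share genes. Apc_KO replicate 4 was the library in 5 of them: Efnb2 was at 10.9 FPKM against 20.8 to 21.6 in the other Apc_KO libraries, summed ephrin-B at 23.0 FPKM against 47.1 to 51.5, the ratio of Ephb3 to Ephb2 at 4.07 against 1.32 to 1.68, the ratio of Ephb3 to Efnb1 at 4.61 against 1.81 to 2.19, and the share of Ephb3 in B receptor FPKM at 57.7% against 39.3% to 40.2%. Ephb4 was at 40.8 FPKM in Apc_HET replicate 4 against 48.5 to 49.4 in the other Apc_HET libraries. Efna3 was at 5.91 FPKM in Apc_WT replicate 4 against 5.39 to 5.47.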

How the results depend on the processing

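Ephb3 was called higher and Efnb1 lower, in Apc_KO against both other genotypes, under every alternative run. The number of members called against Apc_WT was 2, beside 45.5% of all genes. It was 3 with size factors, beside 2864 genes higher and 2829 lower of 12962. It was 3 with quantile normalization, beside 2764 and 3043. Efna1 was the member added in both. With arrayWeights it was 4, beside 49.7% of all genes. Against Apc_HET it was 3, beside 41.8%, and 5 with arrayWeights, beside 47.7%. Leaving out 1 library gave 2 to 5 against either genotype. The 5 came without Apc_KO replicate 4, beside 48.4% of all genes against Apc_WT and 43.4% against Apc_HET. The filter of 5 FPKM left 2 of the other family genes, both called, in each of these comparisons. Epha4 was not tested with that filter. Between Apc_HET and Apc_WT 0 members, other family genes and partners were called under every alternative.

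Members that were not called changed sign as follows, in log2 difference. Between Apc_KO and Apc_WT, Ephb2 was 0.31 with arrayWeights and -0.26 to 0.30 with 1 library left out. Ephb4 was -0.25 to 0.041 with 1 left out. Epha1 was -0.050 with size factors, -0.12 with quantile normalization, -0.074 with arrayWeights and -0.098 to 0.14 with 1 left out, and Epha4 -0.16 with quantile normalization. Between Apc_HET and Apc_WT, Efna1 was -3.99e-05 with size factors and -0.093 to 0.25 with 1 left out, Efnb2 -0.14 to 0.088, Efna4 -0.086 to 0.015 and Epha1 -0.13 to 0.00395. Between Apc_KO and Apc_HET, arrayWeights gave 0.035 for Ephb2, -0.021 for Epha1 and 0.031 for Epha2. Leaving out 1 library gave -0.49 to 0.060 for Ephb2, -0.019 to 0.22 for Epha1, -0.43 to 0.23 for Epha2 and -0.32 to 0.016 for Efna4. The cause was not tested.

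The labels give no pairing, and the replicate numbers were not treated as one because not every same-numbered correlation of deviations was over 0.1. Between Apc_WT and Apc_KO the 4 correlations ran from -0.10 to 0.18, with 3 of 4 over 0.1 and best with their own number, a hint from the data only. With Apc_HET 0 of 8 were over 0.1, and the lowest was -0.20. With the replicate block, log2 differences were the same, 1.50 for Ephb3 (adjusted p = 6.72e-05) and -1.10 for Efnb1 (adjusted p = 0.00243), and no call changed.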
